A study of Mus musculus with 2 samples.

Results

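The genes described here make, break down and sense prostaglandins in the adult mouse ovary. The 10 were chosen by function, with earlier results of these data known. They are the cyclooxygenases Ptgs1 and Ptgs2, the terminal synthases Ptges, Ptges3 and Ptgis, the inactivating enzyme Hpgd, and the receptors Ptgfr, Ptger2, Ptger3 and Ptger4. All 10 were found among 43346 mouse genes by Ensembl identifier, and they carry 27 of the annotated transcripts. The ovaries came from female littermates of the strain C57BL/6J, aged 8 weeks, with no treatment or allele named in the labels. There is 1 group, with 2 libraries called biological replicates 2 and 1, although both cite one donor record, so the spread between them may be partly technical. The assay was stranded, paired-end sequencing of polyadenylated RNA from whole tissue, of more than 200 nucleotides, with reads of 76 bases. The reads assigned to genes totalled 34930872 for replicate 2, against 41124064 for replicate 1. All 5 granulosa, 5 theca, 5 luteal and 5 oocyte markers examined reached a level of 1 TPM, a unit for transcripts scaled to a fixed library total, in both libraries, and so did the 5 oviduct markers.

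Prostaglandins are short-lived lipid signals. Phospholipases free arachidonic acid from membranes, the cyclooxygenases turn it into an unstable intermediate, and terminal synthases convert that into prostaglandin E2, prostacyclin or other products, which act on receptors coupled to G proteins. In the rodent ovary, prostaglandin E2 made after the surge of luteinizing hormone is known for its part in cumulus expansion and ovulation, and prostaglandin F2-alpha for its action on the corpus luteum.

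Several of these genes have alternative transcript forms, and the stretches that tell the forms of Ptges3, Ptger3 and Ptges apart are shown first because the shares of these forms differed between the libraries. Sequences are from GENCODE M21 transcripts on mm10, 5′ to 3′ on the gene's strand. Ptges3 has a 90-base coding exon at chr10:128072068-128072157 (plus strand) that one form holds and the other skips. In the first line capitals mark that exon, and in the second they mark the exon that follows directly when it is skipped.
Ptges3 with the exon: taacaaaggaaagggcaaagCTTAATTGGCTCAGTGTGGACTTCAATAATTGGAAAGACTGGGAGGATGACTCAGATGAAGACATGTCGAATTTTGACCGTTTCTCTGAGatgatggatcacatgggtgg
Ptges3 without the exon: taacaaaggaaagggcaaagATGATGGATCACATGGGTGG

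Ptger3 has alternative coding ends. Both forms share the lower-case bases, and the capitals run to the stop codon. The first tail lies in the exon at chr3:157643875-157645888 and closes a frame of 362 codons, and the second starts in the exon at chr3:157641721-157641809 and closes one of 366 codons (plus strand).
Ptger3 ENSMUST00000041175: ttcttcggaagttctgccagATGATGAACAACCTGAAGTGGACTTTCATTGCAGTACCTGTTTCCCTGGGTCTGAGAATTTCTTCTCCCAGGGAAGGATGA
Ptger3 ENSMUST00000173533: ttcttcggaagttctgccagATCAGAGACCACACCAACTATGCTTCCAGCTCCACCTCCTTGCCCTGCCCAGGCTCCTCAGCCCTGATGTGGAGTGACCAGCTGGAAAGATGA

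Ptges has alternative first exons on the minus strand, at chr2:30903090-30903297 in the coding form and at chr2:30901714-30901788 in the main form without a coding frame. The next exon, in capitals, is the same in both, so the reads that cross this join tell them apart.
Ptges ENSMUST00000102852: aggctgcggaagaagGCTTTTGCCAACCCC
Ptges ENSMUST00000056046: agggaggaattctggGCTTTTGCCAACCCC

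Levels are given in TPM, which corrects for transcript length and so allows genes to be compared within a library. Of the 10 genes, 9 reached a TPM of 1 in both libraries, against 62.0% of 21474 protein-coding genes. The median of the 10 genes' mean levels was 26.5 TPM, beside a median of 4.45 TPM over all protein-coding genes. Because the genes were chosen with earlier results of these data known, both comparisons are descriptions only. In whole tissue, fewer cells of a type and less RNA per cell cannot be told apart. Marker genes of oviduct and fat were abundant too, with Ovgp1 at 577 TPM and Cfd at 2427 TPM on average. Which cells the levels of the 10 genes came from was not tested.

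Among the 5 synthesis genes of the list, the cyclooxygenases, which carry out the committed step, had the lowest levels. Ptgs1 (chr2:36230426-36252272), the constitutive enzyme, had 16.8 TPM in replicate 2 and 21.4 in replicate 1 (19.1 ± 3.25, SD, n = 2), on 516 counts in replicate 2 and 634 in replicate 1. Ptgs2 (chr1:150100031-150108227), the enzyme induced in granulosa cells before ovulation, had 0.67 TPM in replicate 2 and 0.88 in replicate 1 (0.775 ± 0.148), on 70 counts in replicate 2 and 110 in replicate 1. It was the lowest of the 10 genes and lay at percentile 34.8 of protein-coding genes by mean level. Within each library Ptgs1 exceeded Ptgs2 by a similar factor, 25.1-fold in replicate 2 and 24.3-fold in replicate 1. Time relative to ovulation was not among the sample fields used here, so neither the level of Ptgs2 nor this factor was set against it. Ptgs2os, a noncoding neighbour of Ptgs2, had 3 counts in each library.

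Terminal synthases were the highest group by gene TPM, which includes forms without a coding frame. Ptgis (chr2:167191805-167240604), the cytochrome P450 that makes prostacyclin, led with 140 TPM in replicate 2 and 125 in replicate 1 (133 ± 10.7, SD, n = 2), at percentile 94.2 of protein-coding genes. Ptges3 (chr10:128058954-128077272) had 139 TPM in replicate 2 and 104 in replicate 1 (121 ± 24.8). Its product is described both as a cytosolic prostaglandin E synthase and as the co-chaperone p23 of the heat shock protein Hsp90, so its level does not stand for prostaglandin synthesis alone. Ptges (chr2:30889471-30929863), the membrane-bound and inducible prostaglandin E synthase, had 107 TPM in replicate 2 and 128 in replicate 1 (118 ± 15.1). The ranges of Ptgis and Ptges3 over the libraries overlapped, as did those of Ptges3 and Ptges. Ptges3 exceeded Ptges in replicate 2 and lay below it in replicate 1. Within a library Ptges stood 6.37-fold above Ptgs1 in replicate 2 and 6.00-fold in replicate 1, by gene TPM. The coding form of Ptges alone had 31.5 TPM in replicate 2 and 55.4 in replicate 1, and that of Ptgs1 had 6.21 and 5.77. The receptor gene Ptgfr, at 42.4 TPM in replicate 2 and 29.1 in replicate 1, lay above coding Ptges in replicate 2 and below it in replicate 1.

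Hpgd (chr8:56294585-56321043) encodes the dehydrogenase that begins the inactivation of prostaglandins. It had 16.3 TPM in replicate 2 and 15 in replicate 1 (15.6 ± 0.912, SD, n = 2), on 606 counts in replicate 2 and 661 in replicate 1. Its range over the libraries did not overlap that of Ptgs1 above it or of Ptger2 below it. The deposited intervals of Hpgd and Ptgs1 did overlap in replicate 2, and the coding form of Ptgs1 alone, at 6.21 TPM in replicate 2 and 5.77 in replicate 1, lay below Hpgd.

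All the receptors on the list were detected. Ptgfr (chr3:151796502-151837630), the receptor of prostaglandin F2-alpha, had 42.4 TPM in replicate 2 and 29.1 in replicate 1 (35.7 ± 9.36, SD, n = 2). Ptger4 (chr15:5206661-5244187), a prostaglandin E2 receptor that raises cyclic AMP, had 38.3 TPM in replicate 2 and 24.5 in replicate 1 (31.4 ± 9.79). Ptger3 (chr3:157566892-157645888), a prostaglandin E2 receptor that mainly couples to inhibitory G proteins, had 27.4 TPM in replicate 2 and 15.7 in replicate 1 (21.6 ± 8.29). The ranges of neighbours over the libraries overlapped, but within each library the order was Ptgfr, Ptger4, Ptger3. Ptgfr exceeded Ptger4 1.11-fold in replicate 2 and 1.19-fold in replicate 1, and Ptger4 exceeded Ptger3 1.40-fold in replicate 2 and 1.56-fold in replicate 1, with deposited intervals that did not overlap in either library. Ptger3 lay above Ptgs1 in replicate 2 and below it in replicate 1. Ptger2 (chr14:44988195-45003820), the other receptor that raises cyclic AMP and the one best known from cumulus cells, was the lowest receptor at 10.3 TPM in replicate 2 and 9.17 in replicate 1 (9.73 ± 0.799). Ptger4 exceeded Ptger2 3.72-fold in replicate 2 and 2.67-fold in replicate 1.

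**Figure D1:**
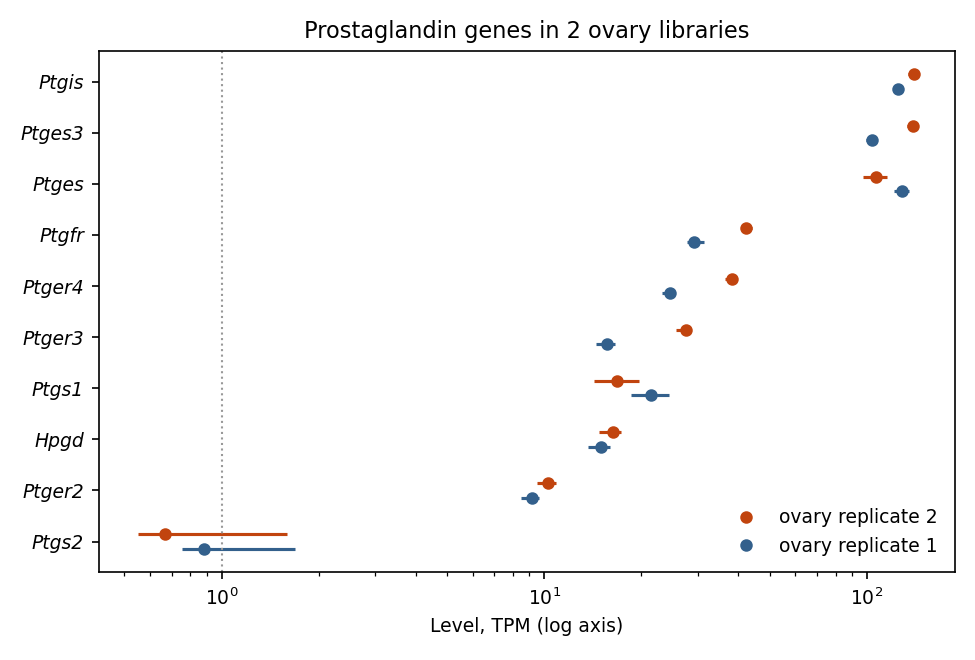
Level in TPM (log axis) of the 10 prostaglandin genes, with 1 point per library and a line for the interval in the authors' deposited table; the dotted line marks a TPM of 1. Ptgis, Ptges3 and Ptges lie above 100 in both libraries, and Ptgs2 alone has points below 1.

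Transcript shares are percentages of a gene's TPM in the authors' deposited tables, and they come from an estimate that divides reads common to several forms. Of the 10 genes, 8 have more than 1 annotated transcript. A share was tested where the gene averaged 100 counts or more and the form averaged 5% or more. That gave 18 forms of 7 genes, compared between the libraries by Fisher's exact test with Benjamini-Hochberg adjustment over 23853 transcripts. Of these 18 forms, 14 differed, against 56.7% of all transcripts tested, and 6 of the 7 genes had such a form, against 66.0% of 9449 genes. Differences of more than 10 percentage points were seen in 10 forms of 6 genes, against 30.0% of all transcripts tested. Forms of a gene share its reads and are not independent, and the test covers counting error between these libraries, not the uncertainty of dividing the reads.

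Ptges3 showed the largest shift among the 10 genes. The form without the 90-base exon took 80.8% of the gene's TPM in replicate 2 and 42.1% in replicate 1 (61.4% ± 27.4, SD, n = 2). The form with the exon took 19.0% in replicate 2 and 57.9% in replicate 1. In estimated counts, the skipping form had 3731 with a deposited posterior SD of 48.0 in replicate 2 and 1719 with 90.6 in replicate 1. The libraries were thus far apart relative to the uncertainty of the split. The gene's total counts, not scaled for depth, were 4896 in replicate 2 and 4870 in replicate 1. In TPM the gene was 1.34-fold higher in replicate 2. The difference of both forms lay at percentile 97.8 in size among all transcripts tested, and Fisher's exact test gave a p too small to be represented. The forms differ at the ends as well, by 57 bases at the 5′ end and 294 bases at the 3′ end. The deposited values do not show which of these stretches set the estimate apart. The processed copy Ptges3-ps had 1.01 counts in replicate 2 and 0 in replicate 1.

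The coding form of Ptges was a minority of its TPM. It took 29.4% in replicate 2 and 43.2% in replicate 1, which is 31.5 TPM in replicate 2 and 55.4 in replicate 1 (43.4 ± 16.9, SD, n = 2). By counts it held the larger part, with 77.1% of the gene's counts in replicate 2 and 84.5% in replicate 1, since it has 3647 bases and the main noncoding form 703. That noncoding form took 50.7% of TPM in replicate 2 and 56.8% in replicate 1. Another noncoding form of 446 bases took 19.9% in replicate 2 and was listed at 0 in replicate 1, with posterior SDs of 36.1 counts on 126 in replicate 2 and 10.2 in replicate 1. The coding level of Ptges therefore stood well below the summed coding levels of Ptgis and Ptges3, whose coding forms held at least 99.7% of their TPM in both libraries. Single forms of those genes lay closer. In replicate 2 and replicate 1, the Ptges3 form with the exon had 26.35 and 60.16 TPM, and the skipping form 112 and 43.7. In the same order, the Ptgis form of 501 codons had 62.55 and 56.56 TPM, and that of 509 codons 77.5 and 68.5.

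Ptgs1 was split in a like way. Its full-length coding form of 2867 bases took 37.0% of TPM in replicate 2 and 27.0% in replicate 1 (adjusted p = 0.00719, Fisher's exact test), or 6.21 TPM in replicate 2 and 5.77 in replicate 1. By counts the coding form of Ptgs1 held the larger part, 78.8% in replicate 2 and 71.0% in replicate 1. The rest belonged to 4 shorter forms with no coding frame. One of them, ENSMUST00000149930, is listed with 666 bases in the annotation that was used and with 2741 in the newer M21, so its values depend on that annotation. Restricted to coding forms, Ptgs1 stood 9.27-fold above Ptgs2 in replicate 2 and 6.56-fold in replicate 1.

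The receptor genes had a dominant form each. For Ptger3 the form of 362 codons took 91.2% in replicate 2 and 76.5% in replicate 1 (83.8% ± 10.4, SD, n = 2), and the form of 366 codons took 8.79% in replicate 2 and 23.6% in replicate 1. The shift passed the test (adjusted p = 9.57e-20, Fisher's exact test). The posterior SDs were wide for the minor form, 34.8 on 112 counts in replicate 2 and 58.8 on 204 in replicate 1. For Ptgfr the main form took 98.1% in replicate 2 and 84.4% in replicate 1, and its shorter partner, which encodes the same 366 codons, took 1.91% in replicate 2 and 15.6% in replicate 1 (adjusted p = 5.81e-39, Fisher's exact test). For Ptger4 the form of 513 codons took 77.1% in replicate 2 and 82.6% in replicate 1. The Ptger4 form of 488 codons took 11.3% in replicate 2 and 17.4% in replicate 1. A noncoding Ptger4 form of 3771 bases took 11.5% in replicate 2, on 388 counts, and was listed at 0 in replicate 1.

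Among the 7 genes with tested forms, Ptgis was the one without a form that differed. Its coding forms use different last exons and encode 509 and 501 codons. The longer frame took 55.3% in replicate 2 and 54.8% in replicate 1, and the shorter took 44.6% in replicate 2 and 45.2% in replicate 1. Neither share passed the test (adjusted p = 0.580 and 0.569, Fisher's exact test), and the posterior SDs were 122 counts in replicate 2 and 111 in replicate 1. Hpgd and Ptger2 have 1 annotated form each, and all reads of Ptgs2 were assigned to its full-length form of 604 codons.

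**Figure D2:**
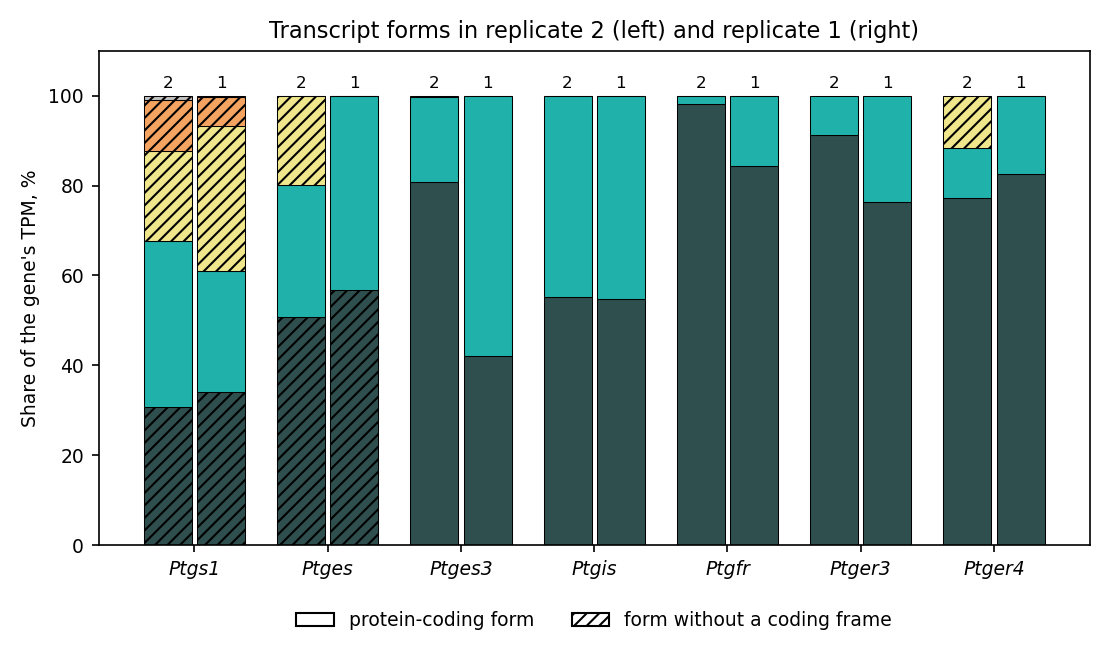
Share of the gene's TPM (percent) taken by each transcript form of the 7 tested genes, as stacked bars for replicate 2 (left of each pair) and replicate 1 (right); hatching marks forms without a coding frame. The skipping form of Ptges3, at the base of its bars, takes 80.8% in replicate 2 and 42.1% in replicate 1, while the bars of Ptgis are nearly alike.

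The remaining comparison asked how far the libraries differed in these genes. Ratios are log2 values of replicate 2 over replicate 1, from expected counts scaled by TMM. Since single libraries leave 0 residual degrees of freedom for the quasi-likelihood test of edgeR, a two-sided exact binomial test was used, adjusted over 15939 genes. It compares the reads of these libraries and has no replicate check. Of the 10 genes, 6 were higher, 1 was lower and 3 did not pass, beside 29.0% higher, 26.8% lower and 55.8% in either direction of all genes tested. None differed by more than 2-fold, which 3.99% of all genes did. The median absolute log2 ratio of the 10 genes was 0.33, beside 0.23 over all genes tested.

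All 4 receptor genes on the list were higher in replicate 2, on TMM scaling. Ptger3 had 1227 counts in replicate 2 and 840 in replicate 1, a log2 ratio of 0.84 (counting SE 0.06, adjusted p = 9.54e-39, exact binomial test). Ptgfr had 4114 counts in replicate 2 and 3067 in replicate 1, a log2 ratio of 0.72 (counting SE 0.03, adjusted p = 1.18e-97). Ptger4 had 2941 counts in replicate 2 and 2203 in replicate 1, a log2 ratio of 0.72 (counting SE 0.04, adjusted p = 6.89e-69). Its coding forms alone had 33.9 TPM in replicate 2 and 24.5 in replicate 1. Among all genes tested these ratios lay at percentiles 93.6, 90.2 and 89.9 by size. Ptger2 was higher by only 0.21 (counting SE 0.07, adjusted p = 0.00471). Scaled to the spike-in RNAs, which puts the median of all genes at -0.44 with 1136 genes higher and 11384 lower (4616 and 4278 with TMM, 3742 and 5493 with total counts), Ptger3, Ptgfr and Ptger4 remained higher at 0.41, 0.29 and 0.28, but Ptger2 turned to -0.22.

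Synthesis genes went both ways. Ptges was the gene of the list that was lower, with 3453 counts in replicate 2 and 6625 in replicate 1 and a log2 ratio of -0.64 (counting SE 0.03, adjusted p = 1.09e-101, exact binomial test). In TPM the fold for Ptges was milder, 0.834, because the short noncoding forms together take a larger part of TPM in replicate 2. Only the form of 446 bases rose, with 19.9% in replicate 2 and 0 in replicate 1. The main noncoding form took 50.7% in replicate 2 and 56.8% in replicate 1. The coding form of Ptges alone differed by -0.82 on the log2 scale of TPM. Ptges3 was higher by 0.31 and Ptgis by 0.21 on TMM scaling, and both turned to lower with spike-in scaling, at -0.13 and -0.22. Ptgs1 (log2 ratio 0.0020, counting SE 0.09), Ptgs2 (-0.35, counting SE 0.22) and Hpgd (0.17, counting SE 0.08) did not pass the test, with adjusted p values of 1, 0.187 and 0.0607.

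Marker genes of ovarian and other cells differed between the libraries as well, and their counts depended on the scaling. Of all 15939 genes tested, spike-in scaling put 1136 higher and 11384 lower. With TMM, where 29.0% of all genes were higher and 26.8% lower, the 5 surface epithelium markers were all higher in replicate 2, and with spike-in scaling 2 were higher and 2 lower. Their summed level was 844 TPM in replicate 2 and 647 in replicate 1. Of 5 adipocyte markers, 4 were higher and 1 lower with TMM, against 1 higher and 3 lower with spike-in scaling, and they summed to 3171 TPM in replicate 2 and 2415 in replicate 1. Cfd made up most of that sum, with 2772 TPM in replicate 2 and 2081 in replicate 1. The other adipocyte markers summed to 399 TPM in replicate 2 and 334 in replicate 1. None of the oocyte, endothelium and macrophage markers was higher with either scaling, and 3 of the 5 in each list were lower with TMM. The oocyte markers summed to 252 TPM in replicate 2 and 317 in replicate 1, the endothelium markers to 393 in replicate 2 and 468 in replicate 1, and the macrophage markers to 275 in replicate 2 and 332 in replicate 1. Theca markers (1 higher and 3 lower with TMM, all 5 lower with spike-in scaling) summed to 2465 TPM in replicate 2 and 2653 in replicate 1. Luteal markers (2 higher and 3 lower with TMM, 1 and 3 with spike-in scaling) summed to 2357 TPM in replicate 2 and 2973 in replicate 1. Granulosa markers were 2 higher and 3 lower with TMM and all 5 lower with spike-in scaling. Inha made up most of their sum, with 6279 TPM in replicate 2 and 7396 in replicate 1, and the other 4 summed to 412 in replicate 2 and 381 in replicate 1. Smooth muscle markers (2 higher and 1 lower with TMM, all 5 lower with spike-in scaling) summed to 3773 TPM in replicate 2 and 4187 in replicate 1. Oviduct markers (1 higher and 2 lower with TMM, all 5 lower with spike-in scaling) summed to 783 TPM in replicate 2 and 864 in replicate 1. Ovgp1 made up most of that sum, with 528 TPM in replicate 2 and 627 in replicate 1. The other oviduct markers together went the other way, at 255 TPM in replicate 2 and 237 in replicate 1. Of 5 mast cell markers 3 were tested and none passed with either scaling, and Ms4a2 had 1 count in replicate 2 and 0 in replicate 1. The part of these cells in the ratios was not tested.

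**Figure D3:**
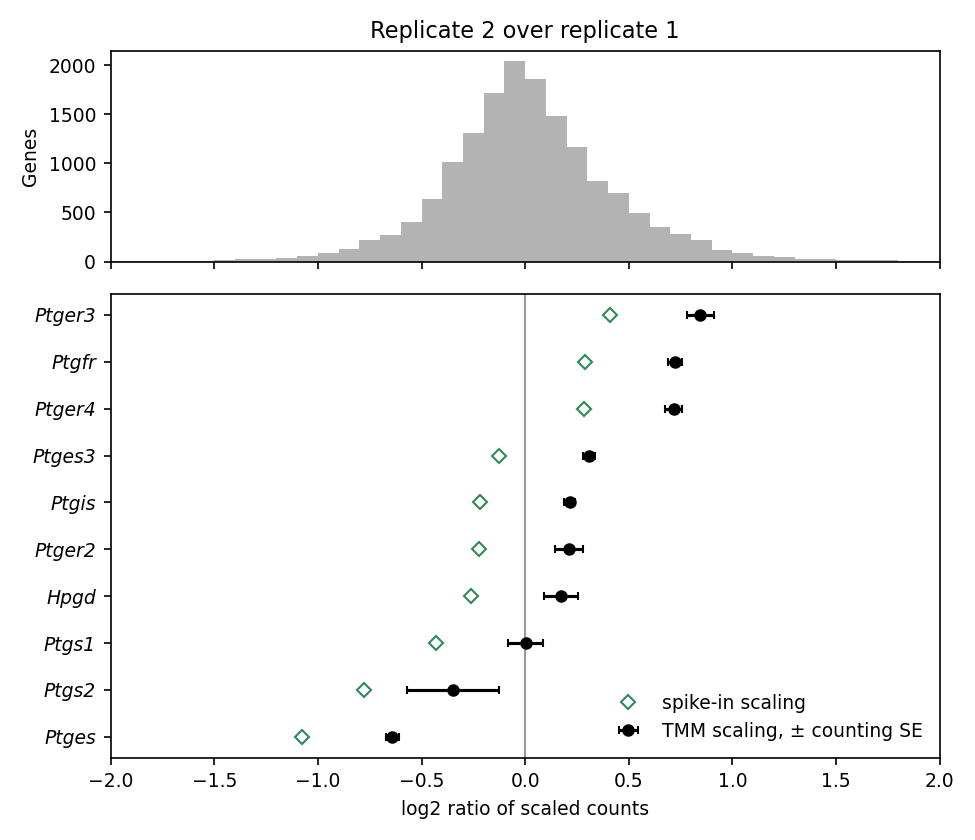
Top, number of genes by log2 ratio of replicate 2 over replicate 1 among the 15939 genes tested, in bins of 0.1 between -2 and 2. Bottom, the 10 prostaglandin genes with TMM scaling (filled, bars are counting SE) and with spike-in scaling (open): Ptger3, Ptgfr and Ptger4 lie to the right of 0 on both scales, and Ptges lies to the left on both.

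The other 24 genes of the prostanoid pathway give the setting, and 23 of them reached a TPM of 1 in both libraries. Among the genes that supply arachidonic acid, Pla2g12a, a secreted phospholipase, had 148 ± 21.9 TPM (SD, n = 2), Mgll, which splits monoglycerides, 99.9 ± 0.594, and the secreted phospholipase gene Pla2g5 78.7 ± 12.8. Pla2g4a, the cytosolic phospholipase commonly paired with cyclooxygenases, stood at only 1.36 ± 0.134 TPM, on 95 counts in replicate 2 and 99 in replicate 1. Of the other synthases, Akr1b3, an aldose reductase with prostaglandin F synthase activity, was highest at 260 ± 26.1 TPM, while the prostaglandin D synthase genes Ptgds and Hpgds had 17.7 ± 2.06 and 2.54 ± 0.396. The thromboxane synthase gene Tbxas1 had 3.52 ± 0.304 TPM. Slco2a1, the transporter that takes prostaglandins into cells for breakdown, had 64.3 ± 2.18 TPM. With TMM, where 29.0% of all genes were higher and 26.8% lower, 2 of the 6 genes of arachidonic acid release were higher in replicate 2 and 2 were lower, against 0 higher and 5 lower with spike-in scaling. Of the 7 other synthesis genes, 1 was higher and 2 lower with TMM, and all 7 were lower with spike-in scaling. Of the 5 genes of transport and further breakdown, 0 were higher and 2 lower with TMM, and all 5 were lower with spike-in scaling. Of all 15939 genes tested, spike-in scaling put 1136 higher and 11384 lower.

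Among the receptors outside the list, Tbxa2r lay in the range of Ptgfr and the others below it. Tbxa2r, the thromboxane receptor gene, had 34.1 ± 3.38 TPM (SD, n = 2), Ptger1 7.88 ± 2.21, Ptgdr2 7.67 ± 1.38 and Ptgir, the prostacyclin receptor gene, 6.33 ± 0.983. Ptgis thus stood at 133 TPM beside a receptor at 6.33 TPM. Ptgdr had 5 counts in replicate 2 and 12 in replicate 1 and was not tested. Of the 5 genes of this group that were tested, all 5 were higher in replicate 2 by the exact binomial test on TMM scaling, led by Ptger1 at a log2 ratio of 0.61 (adjusted over all genes). With spike-in scaling Ptger1 stayed higher at 0.18, and Ptgdr2, Ptgir, Tbxa2r and Ptgfrn turned to -0.02, -0.07, -0.18 and -0.31. Over the 24 genes, 8 were higher, 6 lower and 9 did not pass on TMM scaling, with a median log2 ratio of -0.02, beside -0.01, 29.0% higher and 26.8% lower over all genes tested. With spike-in scaling 1 was higher and 19 lower, beside 1136 higher and 11384 lower of the 15939 genes tested.

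**Figure D4:**
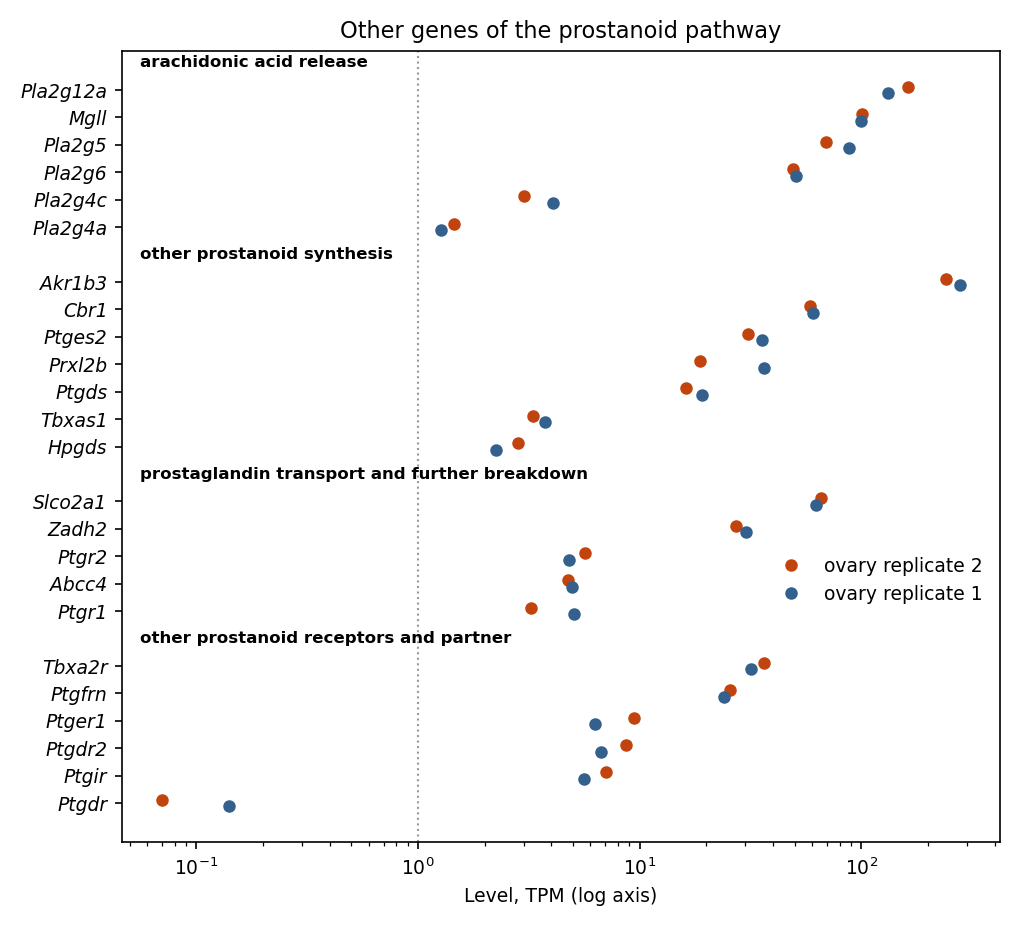
Level in TPM (log axis) of 24 other genes of the prostanoid pathway in both libraries, grouped by role and ordered by mean within each group; the dotted line marks a TPM of 1. Ptgdr is the gene to the left of the line, and Akr1b3 is the highest.

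Genes known to act beside Ptgs2 at ovulation were examined as a further list. Of 8, 5 reached a TPM of 1 in both libraries, the median level was 2.27 TPM, and 7 were tested. With TMM 4 were higher in replicate 2 and 0 lower, beside 29.0% and 26.8% of all genes. With spike-in scaling 3 were higher and 3 lower, beside 1136 higher and 11384 lower of the 15939 genes tested. The matrix protease gene Adamts1 had 46.5 ± 7.69 TPM (SD, n = 2) and the progesterone receptor gene Pgr 46.0 ± 31.2, with 68.0 in replicate 2 and 24.0 in replicate 1. The lowest were Has2, the hyaluronan synthase of the cumulus, at 0.125 ± 0.0354 TPM and the epidermal growth factor family gene Btc at 0.38 ± 0.17. In the leukotriene branch, which shares the substrate, Lta4h had 53.5 ± 8.34 TPM and Alox5ap 44.6 ± 9.76, against 1.16 ± 0.255 for Alox5 and 6.03 ± 0.361 for Alox12.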

How the data were processed

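RNA of 2 ovary libraries of 1 group was analysed. Per gene and per transcript, the authors deposited an expected count (an estimated number of read pairs) and a TPM. The share of a gene's TPM held by a transcript was deposited by them as a percent. All were made on build mm10 with GENCODE M4, per the accompanying notes. Names of the alignment and quantification programs: not given in the sources used here. Posterior SDs of counts and intervals of TPM, of unstated level, were also deposited. Symbols, coordinates and transcript types came from GENCODE M21, which matched 42462 of 43346 mouse gene identifiers. M21 extends Ptgfr (main form 6624 bases against 4208) and Ptger3 (3148 against 2018), so those added ends are not part of the forms counted.

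Expected counts were rounded. The test took the 15939 genes averaging 20 counts or more. TMM scaling came from edgeR 4.0.16 under R 4.3.3, with a prior count of 1 for ratios and Benjamini-Hochberg adjustment at 0.05. The exact binomial p was the smaller tail doubled. DESeq2 1.42.0 gave alternative size factors. The exact tests ran in scipy 1.17.1 under Python 3.11.15 and were tested on simulated data. Spike-ins (96) took 0.986% of counts in replicate 2 and 0.764% in replicate 1 and, with 26249 other rows holding 0 counts, were left out. Depth sets precision: counting SEs cover counting error only. The genes and lists were chosen with earlier results of these data known. Named transcripts have a mean share of at least 10%, or are named for a value seen. All genes of the prostanoid lists could be named, with the 2 highest and 2 lowest of the leukotriene and ovulation lists. Marker lists are given as sums. The 2 series tables on mm9 were not used here. Alternatives covered scaling, filters, posterior estimates, ratios of TPM, TPM denominators and single libraries.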

Additional observations from a re-analysis of the deposited data

How the results depend on the processing

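The median level of the 10 genes and the number detected kept within the spread or within 1.5 times under every alternative tried (posterior mean TPM, TPM over nuclear protein-coding genes, a detection limit of a TPM of 0.5, which all 10 reached, and each library alone). Without replicate 1 or without replicate 2 the median ranged between 22.9 and 32.9 TPM, and 9 genes were detected in each. The number of forms whose share differed was 14 with posterior shares and 14 at a gene count of at least 20. With spike-in scaling 3 genes were higher and 7 lower, in place of 6 and 1, beside 1136 higher and 11384 lower of the 15939 genes tested. On that scale Ptgs1 turned to -0.43, Ptges3 to -0.13, Ptgis to -0.22, Hpgd to -0.26 and Ptger2 to -0.22, and Ptgs2 passed the test at -0.78. Which scale is right cannot be told from these files. Ptgs1, near 0, also turned to -0.062 with total counts, -0.0068 with no filter and -0.0046 at a mean count of at least 100. Ratios of TPM, which were not tested, put Ptgs1 further down. It stood at -0.33 with 1 added to each TPM and at -0.35 with 0.1 added. The other genes of the list kept their direction in ratios of TPM, but the sizes of several moved, with Ptges at -0.26 on both. Ptger2 no longer passed with total counts (0.15, adjusted p = 0.0553, exact binomial test) or with Bonferroni adjustment, where 5 genes were higher. Posterior means put Ptgs2 at 1.05 TPM, because its short form without reads receives a posterior level. Depth limits Ptgs2, Pla2g4a and Ptgdr, whose counts were low. No paired analysis was possible because the design holds 1 group. Leaving out a library leaves no ratio or test of shares.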
